A study of Mus musculus with 32 samples.

Results

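Donor CD8 T cells taken from allogeneic hosts that had received regulatory T cells (Treg) were compared with donor CD8 T cells from allogeneic hosts that had not. The comparison was defined by the sample labels alone. It holds 8 of the 32 samples of the series, 4 Treg-treated and 4 allogeneic, and 31 libraries with a group in the labels entered the fit. Donor cells came from C57Bl6 mice and were given to Balb/c recipients, a mismatch at the major histocompatibility genes that causes acute graft-versus-host disease (GVHD). Both groups carry that same transplant, and the Treg-treated hosts also received Treg on day 0. CD8+ T cells were sorted from spleen and lymph nodes. The sample titles place the sort at day 6, while the series text speaks of 8 days. The 3 CD8 libraries from syngeneic hosts and 2 from before transplantation (day 0) are given beside the comparison as reference levels. Each group has 2 libraries with the label prefix JL019 and 2 with JL027. The labels do not say what a prefix is, nor whether a library holds cells of 1 mouse or of several. The p-values thus rest on a spread between libraries, which may be partly technical. For limma that spread was estimated over all 31 libraries, other cell types and conditions included, and not from the 8 alone. The exact permutation tests of the T cell receptor (TCR) used the 8 libraries only. Ages, cell doses and conditioning of the hosts are not given in the sources used here.

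CD8 T cells kill target cells by releasing perforin and granzymes, secrete interferon gamma and chemokines, and after recognising host antigen they divide rapidly, so that single clones become large. In acute GVHD donor CD8 cells of this kind damage host tissues. Treg are CD4+ T cells governed by the transcription factor Foxp3, and when they are given with the graft they restrain this disease. They do so by means such as consuming interleukin 2, expressing CTLA-4 and changing the function of antigen-presenting cells.

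RNA values were normalised counts of 16741 genes, with no reads recoverable and thus unknown RNA depth. TCR reads numbered 11487 to 133115 (beta chain, TRB) and 6870 to 39867 (alpha chain, TRA) in the 8 libraries. Cd8a, a CD8 coreceptor chain, lay between 14160 and 29769 normalised counts in the 8 libraries. It was higher in each Treg-treated library than in any allogeneic one (log2 change 0.65, SE 0.61, limma adjusted p 0.662). That standard error takes in the spread of libraries of other cell types, so this p does not describe the spread within the 8. The counts of called markers below have the same limit. Cd4 lay between 8.76 and 70.7. The 11 B cell markers in the table summed to 9470-11650 in allogeneic and 11260-14750 in Treg-treated libraries, most of it Ighm, at 8292 to 13385, while the B cell factor Pax5 stayed under 5 in all 8. Of these markers 6 had a higher mean log2 value in Treg-treated cells and 0 were called. The mean normalised count was highest in Treg-treated JL019-2 among its group, at 2385 against 1761 to 1968, and in allogeneic JL027-1 among its own, at 1849 against 1691 to 1728. Treg-treated JL019-2 also had the steepest trend with gene length, -0.124 log2 units per doubling of genomic span, where the other Treg-treated libraries had -0.00715, 0.0149 and -0.0559 and the allogeneic libraries -0.0179 to 0.0135. The 14 myeloid marker genes summed to 8743-13360 in allogeneic and 13970-34620 in Treg-treated libraries, without overlap. Of the 14, 9 had a higher mean log2 value in Treg-treated cells and 0 were called in the fit of all 31 libraries. S100a8 had 2343, 3251, 4560 and 4473 in allogeneic and 6884, 15682, 6515 and 5706 in Treg-treated libraries (log2 change 1.17, SE 0.80 from that fit). S100a8, S100a9, Lyz2 and Tyrobp were higher in every Treg-treated library, Itgam had a log2 change of -1.24 and Mpeg1 one of -0.50 (limma adjusted p 0.382 and 0.743), and the highest value of Csf1r was 22.2. The 10 Treg markers summed to 37150-43010 in allogeneic and 27630-51340 in Treg-treated libraries, and 6 had a higher mean log2 value in Treg-treated cells, with 0 called. Izumo1r, a folate receptor family protein of Treg, had a log2 change of 0.97 with separate groups (limma adjusted p 0.167), Ikzf2 one of 0.65, Foxp3 one of -0.84 and Lrrc32 one of -1.54 (limma adjusted p 0.456, 0.577 and 0.410). The 6 NK cell markers summed to 1794-2164 and 1668-1829, and Klra8 stayed under 5 in all 8. The 10 erythroid markers in the table summed to 787.4-15500 in allogeneic and 3234-20430 in Treg-treated libraries. All 10 had a higher mean log2 value in Treg-treated cells and 0 were called. The globin genes Hba-a1, Hba-a2, Hbb-bs and Hbb-bt were higher in each Treg-treated library than in both allogeneic ones of its prefix, with Hba-a2 at 435, 181, 5666 and 2923 in allogeneic and 807, 1247, 7076 and 7750 in Treg-treated libraries (log2 change 1.35, limma adjusted p 0.713). The part of other cell types in the results below was not tested. In bulk samples fewer cells of a kind and less RNA per cell cannot be told apart.

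Differences between Treg-treated and allogeneic CD8 cells were small for most genes, and a short list was called in the fit of all 31 libraries. The median absolute log2 change was 0.333, with a median standard error of 0.354, so that the 95% interval of a typical gene reached 0.727 to each side. limma on log2(value + 1) called 11 genes, 0.0657% of all, at a Benjamini-Hochberg adjusted p under 0.05, 8 higher (0.0478%) and 3 lower (0.0179%) in Treg-treated cells. At an unadjusted p under 0.05 there were 1851 genes (11.1%), 1034 higher (6.18%) and 817 lower (4.88%). That balance moved with the fit, to 659 higher and 697 lower with only the 8 libraries, 735 and 788 with the library mean as a covariate, and 1172 and 660 with median centring. The 4 Treg-treated libraries lay entirely above or entirely below the 4 allogeneic ones for 819 genes, 4.89% of all, 432 above (2.58%) and 387 below (2.31%). A change of more than 2-fold was seen for 1236 genes, 475 higher and 761 lower, and 261 of these had groups that did not overlap. The groups were separate for all 11 called genes. The number called fell to 0, with 1356 genes at an unadjusted p under 0.05, when only the 8 libraries entered the fit. It was 63 without allogeneic JL027-1, 42 without Treg-treated JL019-1, 7 without allogeneic JL019-2, 6 without Treg-treated JL027-2, 5 without allogeneic JL027-2 and 4 without allogeneic JL019-1. Sostdc1, Id3, Cd200r1 and Cd83 were called in all 8 fits with 1 library left out and Rgs10 in 6. Crem and Septin8 were called in 3, and Trib3, Nup35, Hhat and Ncr1 in 2, with adjusted p up to 0.277 by limma.

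Genes of surface and secreted proteins were among the 8 that rose. Sostdc1 (ENSMUSG00000036169; GRCm38 chromosome 12, 36314169-36318452), which encodes a secreted antagonist of BMP and Wnt signals, had 1.65, 1.14, 7.84 and 3.43 normalised counts in the allogeneic libraries JL019-1, JL019-2, JL027-1 and JL027-2. In the Treg-treated libraries of the same labels it had 21.1, 125, 128 and 152 (log2 change 4.48, SE 0.55, limma adjusted p 0.000209). Treg-treated JL019-1 was the low member of its group and still lay above all allogeneic libraries. Ncr1 (ENSMUSG00000062524; chromosome 7, 4337715-4345184), the activating NK receptor NKp46, had 6.49, 3.37, 8.67 and 1.72 in allogeneic and 66.4, 40.4, 60.2 and 107 in Treg-treated libraries (log2 change 3.60, SE 0.71, limma adjusted p 0.0448). Its day 0 CD8 values were 85.2 and 91.5, and its syngeneic mean was 14.5. Of the 6 NK markers, 5 had a higher mean log2 value in Treg-treated cells, and Ncr1 was the called one. The log2 change was 0.99 for Tyrobp, which is also in the myeloid list and had separate groups, 0.54 for Klra8, 0.25 for Fcgr3, also in the myeloid list, and 0.02 for Eomes. Klrb1c had one of -1.88 (adjusted p 0.207 by limma).

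Cd200r1 (ENSMUSG00000022667; chromosome 16, 44765736-44794977), the inhibitory receptor for CD200, had 193, 213, 338 and 284 in allogeneic and 551, 783, 605 and 596 in Treg-treated libraries (log2 change 1.32, SE 0.20, limma adjusted p 0.00292). Its 3 syngeneic libraries averaged 34.3, below both groups. Cd83 (ENSMUSG00000015396; chromosome 13, 43785112-43803133), a surface protein of activated lymphocytes and dendritic cells, had 24.0, 73.4, 93.3 and 64.6 in allogeneic and 240.4, 146, 257 and 247 in Treg-treated libraries (log2 change 1.91, SE 0.31, limma adjusted p 0.00612). Treg-treated JL019-2 was the lowest of its group for Cd83 and did not reach the allogeneic range.

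Transcriptional regulators among the rising genes were Id3 and Crem. Id3 (ENSMUSG00000007872; chromosome 4, 136143822-136145392) encodes an inhibitor of E-protein transcription factors that marks naive and memory-forming CD8 cells. Its values were 99.0, 92.8, 98.4 and 113 in allogeneic libraries, a narrow range, and 223, 409.5, 587 and 687 in Treg-treated ones (log2 change 2.11, SE 0.28, limma adjusted p 0.000361). The syngeneic mean was 3783 and the day 0 values 2607 and 3319.6, so that all 8 libraries of the comparison stayed below those references. Crem (ENSMUSG00000063889), a cAMP-responsive regulator, had 1146, 1044, 1344 and 1145 in allogeneic and 2173, 3384, 1669 and 2389 in Treg-treated libraries (log2 change 1.00, SE 0.19, limma adjusted p 0.0424). Rgs10 (ENSMUSG00000030844; chromosome 7, 128373621-128419506), which shortens G-protein signals by speeding GTP hydrolysis, had 122, 164, 205 and 119 in allogeneic and 278, 692, 351 and 431 in Treg-treated libraries (log2 change 1.47, SE 0.25, limma adjusted p 0.00829). Nup35 (ENSMUSG00000026999; chromosome 2, 80638812-80660071), a component of the nuclear pore, had 537, 675, 1085 and 741 in allogeneic and 1124, 1696, 1642 and 1901 in Treg-treated libraries (log2 change 1.09, SE 0.21, limma adjusted p 0.0424), and its groups were separated by only 1085 against 1124.

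The 3 genes that fell were Trib3, Septin8 and Hhat. Trib3 (ENSMUSG00000032715; chromosome 2, 152337425-152344060), a pseudokinase induced by the stress factor ATF4, had 244, 366, 242 and 624 in allogeneic and 147, 74.9, 109 and 76.4 in Treg-treated libraries (log2 change -1.79, SE 0.34, limma adjusted p 0.0424). Septin8 (ENSMUSG00000018398; chromosome 11, 53519397-53549605), a filament-forming GTPase of the cell cortex, had 135, 161, 144 and 207 in allogeneic and 69.996, 14.7, 84.8 and 42.8 in Treg-treated libraries (log2 change -1.83, SE 0.36, limma adjusted p 0.0424). Hhat (ENSMUSG00000037375; chromosome 1, 192512825-192771219), the acyltransferase that lipid-modifies Hedgehog proteins, had 584, 741, 521 and 869 in allogeneic and 342, 258, 327 and 295 in Treg-treated libraries (log2 change -1.13, SE 0.22, limma adjusted p 0.0443). Each of the 3 had its lowest values in Treg-treated libraries and no overlap with the allogeneic group.

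**Figure D1:**
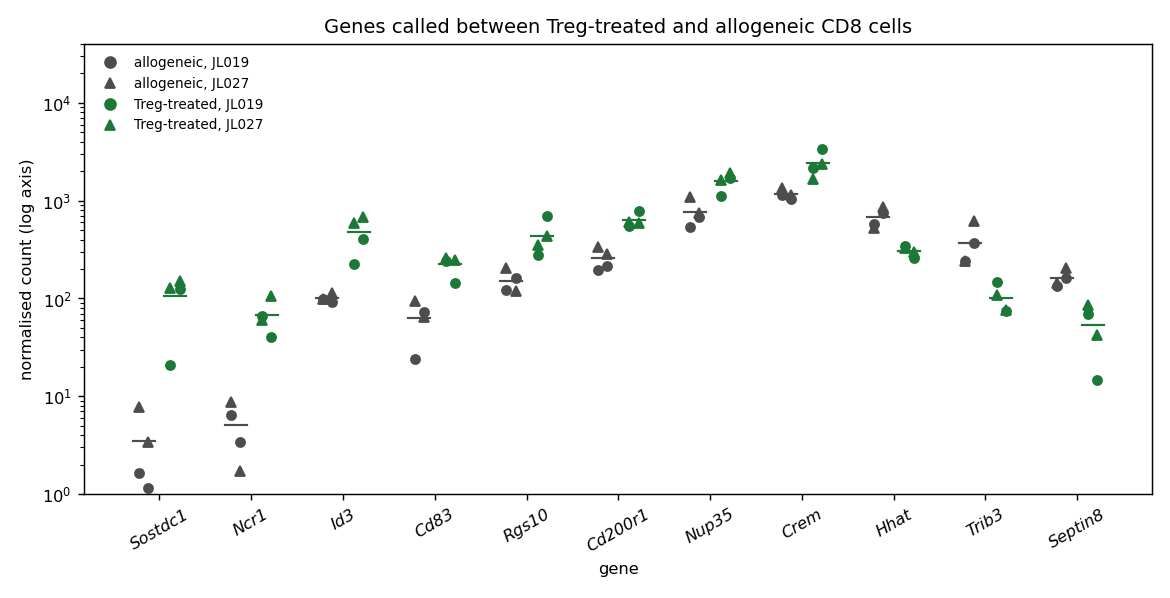
Normalised counts (log axis) of the 11 called genes in the 8 CD8 libraries, grey for allogeneic and green for Treg-treated, circles for prefix JL019 and triangles for JL027, with short lines at the group means. For Sostdc1 the Treg-treated libraries lie between 21.1 and 152 and the allogeneic ones between 1.14 and 7.84, and the groups overlap for none of the 11 genes.

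Beyond the called genes, the naming rule took the genes of lowest p with separate groups, whose adjusted p lay between 0.0617 and 0.0823. Xcl1 (ENSMUSG00000026573), a chemokine that attracts XCR1+ dendritic cells, had 132, 261, 400.3 and 239 in allogeneic and 698, 2010.4, 791 and 1281 in Treg-treated libraries (log2 change 2.18, SE 0.46, limma adjusted p 0.0676). The lower genes of this kind included 2 enzymes of amino acid metabolism. Pycr1, which makes proline, had 158, 158, 81.7 and 209 in allogeneic and 44.9, 36.3, 59.3 and 62.8 in Treg-treated libraries (log2 change -1.52, SE 0.32, limma adjusted p 0.0676). Gpt2, a mitochondrial alanine aminotransferase, had 120.4, 181, 158 and 302 in allogeneic and 50.4, 23.7, 83.9 and 43.3 in Treg-treated libraries (log2 change -1.95, SE 0.45, limma adjusted p 0.0823). Arrb1, which encodes beta-arrestin 1, had 118, 69.6, 117 and 153 in allogeneic and 28.7, 28.9, 37.8 and 23.8 in Treg-treated libraries (log2 change -1.87, SE 0.40, limma adjusted p 0.0676). The 4 others had smaller log2 changes: Pttg1ip -0.70, Inpp5k -0.76, Polr3gl -1.03 and the Schlafen pseudogene Slfn10-ps -1.12, whose row holds the same values as another gene's row.

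Secreted effector molecules were described with 16 cytokine and chemokine genes. Of these, 14 had a higher mean log2 value in Treg-treated cells, with a median log2 change of 0.786 against -0.00694 over all genes. None was called. At an unadjusted p under 0.05, 4 were higher and 1 was lower, where 6.18% and 4.88% of all genes were. The groups did not overlap for 6 higher genes and 1 lower gene, against 2.58% and 2.31% of all genes. Ccl1, a ligand of CCR8, had 144, 243, 579 and 324 in allogeneic and 707, 1618, 990.3 and 1246 in Treg-treated libraries (log2 change 1.93, SE 0.48, limma adjusted p 0.11). Csf2, which encodes GM-CSF, had 247, 307, 433 and 496 in allogeneic and 656, 1146, 752 and 927 in Treg-treated libraries (log2 change 1.25, SE 0.52, limma adjusted p 0.397). Every Treg-treated library lay above every allogeneic one for both.

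Il3, Il2 and Lta also had separate groups at low levels, with Il3 at 0.862-5.95 in allogeneic and 8.56-31.6 in Treg-treated libraries. Il10 went the other way, with 209, 187, 252 and 197 in allogeneic and 56.8, 120.4, 51.7 and 107 in Treg-treated libraries (log2 change -1.41, SE 0.43, limma adjusted p 0.23). Ifng, the signature cytokine of effector CD8 cells, had 6530.5, 5417, 7143 and 6275 in allogeneic and 6541, 11806, 5649 and 8285 in Treg-treated libraries (log2 change 0.30, SE 0.30, limma adjusted p 0.682), and its 95% interval ran from -0.31 to 0.90. The median of the list was 0.506 without Treg-treated JL019-2, the library with the highest score, and 14 of 16 members were still higher. It was 0.430 with the library mean as a covariate, with 12 of 16 higher.

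The cytotoxicity genes had a positive list median whose sign depended on the scaling. Of 15 cytotoxicity genes in the table, 11 were higher in Treg-treated cells, with a median log2 change of 0.326, and 2 were higher at an unadjusted p under 0.05 (6.18% of all genes). Gzmc, a granzyme of late effector cells, had 1198, 1482, 1788 and 2611 in allogeneic and 2836, 6113, 5052 and 5768 in Treg-treated libraries (log2 change 1.48, SE 0.33, limma adjusted p 0.0784). Reads of the neighbouring and similar granzyme genes may be split uncertainly. Gzmb had 134210, 119460, 179710 and 180750 in allogeneic and 133190, 205510, 211120 and 237820 in Treg-treated libraries (log2 change 0.35, SE 0.25, limma adjusted p 0.574), and Prf1, which encodes perforin, had 12837, 13881, 10276 and 15096 in allogeneic and 13989, 8224, 12054 and 14299 in Treg-treated libraries (log2 change -0.12, SE 0.26, limma adjusted p 0.875). Gzmb and Prf1 overlapped between the groups, and the sign of Gzmb turned to -0.08 with quantile normalisation. Without Treg-treated JL019-2 the list median was 0.0565, with 9 of 15 higher, and Prf1 turned to 0.06. By prefix the list median was 0.481 in JL019 and 0.0219 in JL027. The list median was -0.0248 with quantile normalisation, with 7 of 15 higher, and -0.0418 with the library mean as a covariate, with 6 of 15 higher.

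The prefixes JL019 and JL027 share no library, so the change of a gene picked in one can be read in the other. Their p-values share a spread per gene, estimated over all 31 libraries, so the rankings by p are not independent. Over all 16741 genes the log2 change had the same sign in 60.5%, with a Pearson r of 0.220 and a Spearman rho of 0.263 across genes, which are not independent replicates. Of the 100 genes with the lowest p in JL019, 85 had the same sign in JL027. Their median absolute change was 1.71 in JL019 and, in the same direction, 0.565 in JL027. Of the 100 with the lowest p in JL027, 81 had the same sign in JL019, with medians of 1.92 and 0.507. Both lists, each 100 of the 16741 genes, shared 13 genes, 13% of each: Hspa1a, Hspa1b, Sostdc1, Cd200r1, Cd83, Id3, Nup35, Gpt2, Rgs10, Creld2, Serpinb9b, Dnajc6 and Gm14633. Genes of low spread can rank high in both lists, since that spread is shared, and Hspa1a and Hspa1b are near-identical copies. Of the 13 genes, Hspa1a, Creld2, Serpinb9b, Dnajc6 and Gm14633 fall outside the naming rule and appear here because the list is given whole. Hspa1a is described below with the chaperones.

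The top lists held unequal numbers of higher genes, a contrast that was not tested. In JL019 61 of the 100 genes were higher in Treg-treated cells, and in JL027 35 were. The median absolute change over all genes was 0.498 in JL019, which holds Treg-treated JL019-2, and 0.284 in JL027. For the change within JL019 limma called 4 genes (0.0239%), namely Cd200r1, Sostdc1, Hspa1a and Hspa1b. Within JL027 it called 4 (0.0239%), namely Sostdc1, Id3, Hspa1a and Hspa1b. These contrasts of 2 against 2 libraries came from a model of all 31 libraries, whose spread takes in both prefixes and other cell types. Hspa1a and Hspa1b were not called over the 8 libraries. At an unadjusted p under 0.05 there were 1646 genes in JL019 (9.83%) and 563 in JL027 (3.36%). For the difference of the changes between the prefixes, limma called 0 genes, with 331 at an unadjusted p under 0.05 (1.98%). All 11 genes called over the 8 libraries had the same sign in both prefixes. Sostdc1 changed by 4.47 in JL019 and 4.49 in JL027, Id3 by 1.65 in JL019 and 2.58 in JL027 and Cd200r1 by 1.69 in JL019 and 0.95 in JL027.

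**Figure D2:**
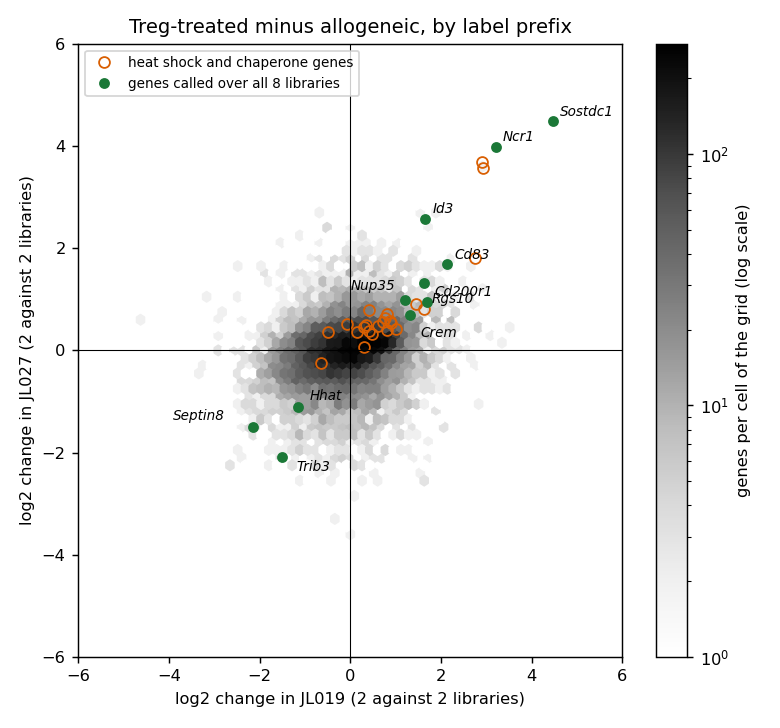
Log2 change of each gene (Treg-treated minus allogeneic) in prefix JL019 on the horizontal axis and in JL027 on the vertical axis, each from 2 against 2 libraries; grey shade gives the number of genes on a log scale, green points the 11 called genes and orange rings the 23 heat shock and chaperone genes. The cloud is nearly round, with the same sign in 60.5% of genes, and Sostdc1 lies at 4.47 and 4.49.

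The 2 inducible Hsp70 genes, Hspa1a and Hspa1b, were called within each prefix, so chaperones were looked at as a group of 23 genes. That list was chosen after values of some of its members had been seen, and its counts are a description. Hsp70 and Hsp90 proteins fold other proteins, and heat shock factor 1 switches on their genes through heat shock elements, repeats of GAA and its inverse TTC. Hspa1b (ENSMUSG00000090877) had 771, 724, 1527 and 1891 in allogeneic and 8372, 3832, 21355 and 19031 in Treg-treated libraries (log2 change 3.24, SE 0.68, limma adjusted p 0.0676). Hspa1a (ENSMUSG00000091971) had 414, 494, 852 and 1065 in allogeneic and 4664, 2459.8, 13025 and 11608 in Treg-treated libraries (log2 change 3.29, SE 0.71, limma adjusted p 0.0686). Every Treg-treated library lay above every allogeneic one for both genes. The syngeneic means were 59475 ± 51638 (SD, n = 3) for Hspa1b and 39223 ± 33375 for Hspa1a, and the day 0 values of Hspa1b were 3271 and 4064.

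The promoter windows of this gene pair are shown because both genes were called in each prefix, and near-identical copies such as these can be hard to tell apart by reads. They were taken from RefSeq (GRCm38.p6), from 250 bases before to 50 after the start site, 5′ to 3′ on the gene's strand. The windows are the same at 296 of 300 positions. Capitals mark the heat shock element pair GAANNTTC, which reads the same on both strands.
Hspa1b, chr17:34959189-34959488, minus strand: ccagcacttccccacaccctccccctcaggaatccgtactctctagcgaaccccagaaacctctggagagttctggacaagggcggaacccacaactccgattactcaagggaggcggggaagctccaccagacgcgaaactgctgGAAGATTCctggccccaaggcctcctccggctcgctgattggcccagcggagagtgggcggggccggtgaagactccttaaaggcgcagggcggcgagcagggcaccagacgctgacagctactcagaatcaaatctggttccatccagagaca
Hspa1a, chr17:34972107-34972406, minus strand: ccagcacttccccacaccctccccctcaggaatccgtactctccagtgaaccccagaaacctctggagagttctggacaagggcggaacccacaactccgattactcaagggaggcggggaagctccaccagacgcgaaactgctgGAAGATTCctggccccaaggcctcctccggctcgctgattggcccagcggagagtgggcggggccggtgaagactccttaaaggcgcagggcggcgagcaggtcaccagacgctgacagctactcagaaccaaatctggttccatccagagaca
Each window holds 1 match, which begins 104 bases before the start site. The pair was found in 7.86% of 32851 mouse promoter windows of the same length and in 10 of the 23 windows of the listed chaperone genes. Those 23 windows belong to 17 genes, of which 9 had a match in any window, among them Hspe1 and Hspd1. A longer form, the pair followed after any 2 bases by a further GAA (searched on both strands), was in 0.603% of all windows and in 5 of the 23 chaperone windows, from 4 of the 17 genes, and had 0 matches in Hspa1a and Hspa1b. A match is a description of the letters and says nothing of binding.

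Of the 23 chaperone genes, 21 were higher in Treg-treated cells and 16 of them at an unadjusted p under 0.05 (6.18% of all genes), with 8 in which the groups did not overlap (2.58% of all genes). The median log2 change was 0.604. Hsp90aa1, the inducible cytosolic Hsp90, had 11957, 15125, 18775 and 14557 in allogeneic and 23106, 57971, 25913 and 37195 in Treg-treated libraries (log2 change 1.18, SE 0.26, limma adjusted p 0.0794). Hsp90b1, the Hsp90 of the endoplasmic reticulum, had 19092, 25490, 37010 and 28678 in allogeneic and 41318, 39617, 45428 and 51383 in Treg-treated libraries (log2 change 0.72, SE 0.17, limma adjusted p 0.0823). St13, an Hsp70 cofactor, had 2819.5, 3029, 4166 and 3533 in allogeneic and 4404, 5253, 4936 and 6498 in Treg-treated libraries (log2 change 0.64, SE 0.15, limma adjusted p 0.0823).

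The listed transcription factors of the pathway overlapped between groups, Hsf1 with a log2 change of -0.07 and Hsf2 of 0.40. The list median was 0.573 without Treg-treated JL019-2, with 22 of 23 higher, and ranged from 0.510 to 0.720 when each library was left out in turn. In JL019 it was 0.719 and in JL027 0.512.

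Most genes of the integrated stress response had lower means in Treg-treated cells. In this response, kinases that sense amino acid shortage or unfolded protein raise ATF4, which then induces amino acid transporters and synthetic enzymes. Of 23 genes of the list in the table, 18 were lower in Treg-treated cells, with a median log2 change of -0.341. At an unadjusted p under 0.05, 5 were lower (4.88% of all genes), and the groups were separate for 3 lower genes (2.31% of all genes). Trib3, given above, was the called member. Slc7a3, a transporter of cationic amino acids, had 192, 262, 479 and 526 in allogeneic and 109, 27.4, 118 and 92.6 in Treg-treated libraries (log2 change -2.13, SE 0.55, limma adjusted p 0.125). Asns, which makes asparagine, had 2130.3, 3096, 5693 and 4644 in allogeneic and 1379, 967, 1555 and 1825 in Treg-treated libraries (log2 change -1.38, SE 0.43, limma adjusted p 0.234). Both were separate between the groups.

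Slc7a5, the large neutral amino acid transporter, overlapped, with 3592, 5886, 1927 and 8056 in allogeneic and 2253, 359, 3592 and 1093 in Treg-treated libraries (log2 change -1.67, SE 0.57, limma adjusted p 0.292). Not all members were lower: Atf4 itself had a log2 change of 0.22, Mthfd2 of 0.28 and Psph of 0.18. With each library left out in turn the list median ran from -0.554 (without allogeneic JL027-1) to -0.272 (without allogeneic JL019-2), and it was -0.254 with median centring. Taken per library against the allogeneic mean, the list median was -0.292, 0.145, -0.308 and 0.297 in allogeneic libraries. It was -0.423, -0.355, -0.245 and -0.377 in Treg-treated libraries, so the groups overlapped.

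Promoter windows of Trib3 and Asns are shown for the letters TGATGNAA (TTNCATCA on the other strand), the form of the amino acid response element that ATF4 and C/EBP proteins recognise, with matches on either strand in capitals.
Trib3, chr2:152344011-152344310, minus strand: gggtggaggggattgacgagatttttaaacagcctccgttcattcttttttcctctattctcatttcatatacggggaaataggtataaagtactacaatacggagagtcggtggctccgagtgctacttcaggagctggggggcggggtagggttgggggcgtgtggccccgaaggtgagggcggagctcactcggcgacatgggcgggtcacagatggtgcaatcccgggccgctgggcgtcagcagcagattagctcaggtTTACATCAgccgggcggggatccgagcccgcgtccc
Asns, chr6:7693160-7693459, minus strand: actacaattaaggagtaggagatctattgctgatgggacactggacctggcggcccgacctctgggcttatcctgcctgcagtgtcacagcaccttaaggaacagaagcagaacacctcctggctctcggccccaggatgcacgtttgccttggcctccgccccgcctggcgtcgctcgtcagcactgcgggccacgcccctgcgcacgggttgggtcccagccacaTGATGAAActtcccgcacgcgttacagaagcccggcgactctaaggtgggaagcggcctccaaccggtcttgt
The Asns match begins 23 bases before the start site, and that of Trib3 14 bases after it. These letters were found in 3.97% of the 32851 windows and in 8 of the 23 windows of the 20 listed genes that have one, which include Fgf21, a gene outside the table.

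Genes of glucose use and low oxygen were also lower in mean more often than higher. Of 22 genes, 15 were lower, with a median log2 change of -0.304, 6 of them at an unadjusted p under 0.05 (4.88% of all genes) and 2 with separate groups (2.31% of all genes), and none was called. Egln3, a prolyl hydroxylase induced by low oxygen, had 216, 130.4, 161 and 229.6 in allogeneic and 68.8, 75.1, 118 and 65.5 in Treg-treated libraries (log2 change -1.17, SE 0.31, limma adjusted p 0.144). Pdk1, which holds pyruvate back from mitochondria, had 1709.6, 1176, 1610.1 and 1634 in allogeneic and 1101, 479, 848 and 624 in Treg-treated libraries (log2 change -1.06, SE 0.32, limma adjusted p 0.207). Bnip3, which marks mitochondria for removal, had 431, 130.4, 589 and 539.6 in allogeneic and 139.6, 144, 126 and 106 in Treg-treated libraries (log2 change -1.51, SE 0.40, limma adjusted p 0.137) and overlapped through allogeneic JL019-2. The list median shrank to -0.0567, with 12 of 22 lower, without Treg-treated JL019-2, and was -0.508 in JL019 and -0.023 in JL027.

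Cell cycle genes had slightly positive medians. Of 20 DNA replication genes 13 were higher, with a median log2 change of 0.280, and 6 were higher at an unadjusted p under 0.05 (6.18% of all genes). Of 20 mitosis genes 16 were higher, with a median of 0.197, and 4 were higher at an unadjusted p under 0.05. None was called and the groups overlapped for all 40. Cdk1, the kinase that drives entry into mitosis, had 4276, 4842, 7464 and 5569 in allogeneic and 6535, 14476, 7639.5 and 10559 in Treg-treated libraries (log2 change 0.79, SE 0.26, limma adjusted p 0.275). Ube2c, an enzyme of the anaphase-promoting complex, had 4416, 5844, 7574 and 6433 in allogeneic and 7428, 19225, 8326 and 12243 in Treg-treated libraries (log2 change 0.88, SE 0.31, limma adjusted p 0.303), and Rrm2, a subunit of ribonucleotide reductase, had 13390, 16099, 24248 and 18381 in allogeneic and 21593, 21849, 27678 and 33726 in Treg-treated libraries (log2 change 0.55, SE 0.20, limma adjusted p 0.316). Treg-treated JL019-2 was the highest library for Cdk1 and Ube2c but not for Rrm2. Mki67 had a log2 change of 0.04, with a 95% interval from -0.46 to 0.54. With each library left out in turn the median ran from 0.214 to 0.382 for DNA replication and from 0.110 to 0.295 for mitosis. The lowest came without Treg-treated JL027-2 and the highest without allogeneic JL027-1 in both lists, and without allogeneic JL019-1 the mitosis median was 0.119. With quantile normalisation the mitosis median was 0.0512, with 14 of 20 higher, and without both libraries of largest mean it was 0.371.

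The differentiation lists had medians near 0, which took both signs across the alternatives. The 16 stem and memory factors had 8 members higher and 8 lower, with a median of -0.00455, and Id3 was their called member. Tcf7, which encodes TCF-1, had 1115, 1191, 583 and 1324 in allogeneic and 1974, 679, 2628 and 1988 in Treg-treated libraries (log2 change 0.69, SE 0.46, limma adjusted p 0.551), with 0.01 in JL019 and 1.38 in JL027. Lef1, its relative, had 3886, 3739.6, 3786 and 3714 in allogeneic and 2872, 2443, 2210.4 and 2774 in Treg-treated libraries (log2 change -0.56, SE 0.27, limma adjusted p 0.441). Id2, the effector counterpart of Id3, had a log2 change of 0.25 that turned to -0.07 with the library mean as a covariate.

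Among 14 naive and lymph node homing genes, 6 were higher and the median was -0.0583. Dapl1, a gene of naive and resting T cells, had 106, 99.0, 129 and 119.7 in allogeneic and 168, 609, 304 and 419 in Treg-treated libraries (log2 change 1.58, SE 0.35, limma adjusted p 0.075). Ccr7 overlapped, with a log2 change of 0.19. Il7r, the interleukin 7 receptor, had 6712, 5576, 5581 and 3573 in allogeneic and 3666, 5807, 1436 and 1712 in Treg-treated libraries (log2 change -0.96, SE 0.36, limma adjusted p 0.344).

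Inhibitory receptors and exhaustion factors had 12 of 21 members higher and a median of 0.0243, with none called. Pdcd1, which encodes PD-1, had 22468, 23495, 18997 and 26576 in allogeneic and 42172, 27656, 22478 and 34961 in Treg-treated libraries (log2 change 0.45, SE 0.28, limma adjusted p 0.536). Ctla4 had 17152, 11921, 18092 and 16971 in allogeneic and 13333, 15217, 4532 and 6388 in Treg-treated libraries (log2 change -0.85, SE 0.41, limma adjusted p 0.444), and its low values were confined to the 2 Treg-treated JL027 libraries. Prdm1, which encodes Blimp-1, had 3112, 2972, 2326 and 3110 in allogeneic and 2285, 1298, 1429 and 1239 in Treg-treated libraries (log2 change -0.92, SE 0.25, limma adjusted p 0.159) with separate groups. The list median took both signs, from -0.0689 to 0.140 with each library left out, and was 0.200 with the library mean as a covariate. Tox had a log2 change of 0.45, Il2ra of -0.27 and Foxp3 of -0.84, all with overlap. Foxp3 lay at 103 to 453 in allogeneic and 109.5 to 236 in Treg-treated libraries.

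The remaining lists gave small medians with no called member. These were 0.0952 for 20 costimulators and interleukin 2 family receptors, 0.135 for 18 apoptosis genes, 0.0799 for 25 type I interferon-stimulated genes and -0.242 for 15 interferon-gamma inducible GTPases, of which 13 were lower. With each library left out in turn the median of the costimulators ran from 0.0633 to 0.236, the lowest without allogeneic JL019-2 and the highest without Treg-treated JL027-1, and it was -0.0338 with array weights and -0.0460 without both libraries of largest mean. The median of the GTPases ran from -0.329 to -0.0715, the weakest without allogeneic JL027-1, was -0.106 without Treg-treated JL019-2 and was 0.0107 without both libraries of largest mean. That of the apoptosis genes was -0.00503 without Treg-treated JL019-2. Medians were -0.201 for 20 sterol and fatty acid genes (0.0865 without Treg-treated JL019-2), 0.0856 for 10 killer lectin-like receptors and -0.0294 for 18 homing receptors. By prefix the killer lectin median was 0.547 in JL019 and -0.37 in JL027, and that of the sterol and fatty acid genes -0.452 and 0.16. The GTPase median was -0.368 in JL019 and -0.0307 in JL027. The medians of the type I interferon, killer lectin and homing lists took both signs when libraries were left out, from -0.118 to 0.128, from -0.109 to 0.237 and from -0.140 to 0.0286. With the library mean as a covariate the killer lectin median was -0.461, with 3 of 10 higher, and that of the sterol and fatty acid genes was 0.127. Socs1, a brake on cytokine receptors and a member of the first list, had 589, 621, 419 and 755 in allogeneic and 1101, 1372, 987 and 1224 in Treg-treated libraries (log2 change 0.99, SE 0.27, limma adjusted p 0.15). Ifit2, an interferon-stimulated gene, had 1126, 1149, 1526 and 1207 in allogeneic and 928, 424, 858 and 738 in Treg-treated libraries (log2 change -0.81, SE 0.31, limma adjusted p 0.354).

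**Figure D3:**
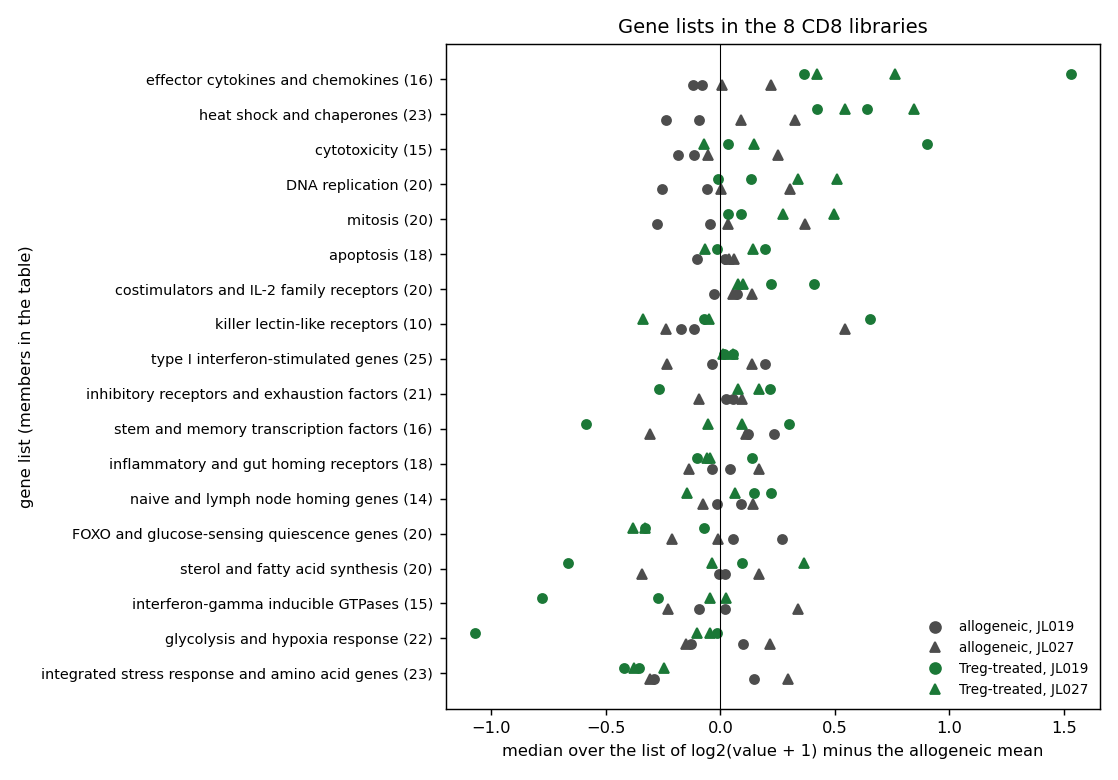
Median over each gene list of log2(value + 1) minus the allogeneic mean of the gene, 1 point per library, with symbols and colours for group and prefix; the number of members in the table is in parentheses. In the chaperone list the 4 Treg-treated libraries (green) lie above the 4 allogeneic ones, and Treg-treated JL019-2 is the farthest green circle in the cytokine, cytotoxicity and glycolysis lists.

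CD4 libraries with the same prefix, condition and number labels as the CD8 ones gave 3710 called genes for the same comparison (22.2% of all). The 11 CD8 genes were among them with the same sign. The labels thus name the same hosts, and both changes came from a model with a shared spread per gene, so this agreement is not independent. The test of the difference between the CD8 and CD4 changes called 1 gene (0.00597%), with 430 at an unadjusted p under 0.05 (2.57%), and among the 11 CD8 genes its lowest adjusted p was 0.898. Gpt2 had a log2 change of 0.49 in CD4 cells and -1.95 in CD8 cells, and Arrb1 of -0.11 and -1.87, with limma adjusted p of 0.898 and 0.898 for those differences.

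Clonal expansion was read from the TCR tables, where a clonotype is a V gene, J gene and CDR3, the loop that contacts antigen. Libraries were first compared for shared clonotypes, with all reads and thus at unequal depth, so the numbers shared also depend on depth. The 3 pairs that shared the most TRB clonotypes by number were of 1 group and prefix. Allogeneic JL027-1 and JL027-2 shared 726 TRB clonotypes, with a Morisita-Horn index (0 for no overlap, 1 for identity) of 0.126. These clonotypes held 67.1% of the reads of JL027-1 and 17.3% of those of JL027-2. Treg-treated JL027-1 and JL027-2 shared 219, which held 65.9% and 4.10% of reads, with an index of 0.0412, and the Treg-treated JL019 pair shared 152, with one of 0.0199. The allogeneic JL019 pair shared 54, with an index of 0.00196. Between the groups the median number shared was 38.5 for pairs of 1 prefix and 34 for pairs of different prefixes. The highest index between the groups was 0.0710, for Treg-treated JL027-1 and allogeneic JL019-1, which shared 35, above that of both Treg-treated pairs. Because libraries share clonotypes in this way, the 10 measures tested below were recomputed with every clonotype kept only in the library where its share was largest.

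Each Treg-treated library held more of its TRB reads in large clonotypes than any allogeneic library, a difference that did not pass after adjustment. At an equal depth of 11487 reads, clonotypes of at least 1% of reads held 18.0, 10.6, 17.3 and 17.8 percent of TRB reads in the allogeneic libraries. They held 24.3, 18.6, 40.7 and 32.8 percent in the Treg-treated libraries, all 4 above the allogeneic range. The difference was 13.2 percentage points (both sides tested, exact permutation p 0.0286, adjusted p 0.19 over 10 tests), and 0.0286 is the smallest p that 4 against 4 libraries can give. By prefix the difference was 7.18 points in JL019 and 19.2 in JL027. With each clonotype kept in 1 library it was 12.2 points (exact permutation test, adjusted p 0.286). The number of such clonotypes averaged 8.56 in allogeneic and 15.6 in Treg-treated libraries, while day 0 and syngeneic CD8 libraries had 0.

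TRB clonality, which runs from 0 for even clonotypes to 1 for a single clone, was 0.166, 0.141, 0.168 and 0.175 in allogeneic and 0.191, 0.170, 0.240 and 0.228 in Treg-treated libraries (exact permutation p 0.0571, adjusted p 0.19). For this measure 3 Treg-treated libraries lay above all allogeneic ones. The number of TRB clonotypes was 2764, 3401, 2782 and 2674 in allogeneic and 2466, 2741, 2200.3 and 2261 in Treg-treated draws (exact permutation p 0.0571, adjusted p 0.19). Syngeneic libraries averaged 8532 and day 0 libraries 9197. Without equal depth the difference in clonotype number turned from -488 to 1077.5, and Treg-treated JL019-2 had the deepest TRB library.

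The share of the largest single TRB clonotype overlapped between the groups. It held 2.66, 2.72, 3.84 and 3.38 percent of reads in allogeneic and 2.73, 2.44, 3.52 and 4.29 percent in Treg-treated libraries (exact permutation p 0.857, adjusted p 0.857). The 10 largest held 18.2, 14.4, 17.3 and 19.3 percent in allogeneic and 19.9, 16.2, 25.2 and 26.8 percent in Treg-treated libraries (exact permutation p 0.171, adjusted p 0.343). The 100 largest held 47.5, 40.3, 47.6 and 49.1 percent of all TRB reads in allogeneic and 54.6, 49.4, 65.4 and 61.7 percent in Treg-treated libraries, so the gap was wider over the next ranks than for the first clone.

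For TRA, clonotypes of at least 1% held 36.6, 34.4, 41.9 and 38.6 percent of reads in allogeneic and 34.8, 35.9, 62.6 and 54.0 percent in Treg-treated libraries (exact permutation p 0.371, adjusted p 0.464). The difference was -0.13 points in JL019 and 18.1 in JL027, and these were not tested against each other. TRA clonality was 0.219, 0.207, 0.274 and 0.217 in allogeneic and 0.221, 0.215, 0.369 and 0.302 in Treg-treated libraries (exact permutation p 0.229, adjusted p 0.367). The number of TRA clonotypes was 1134, 1184, 1113 and 1141 in allogeneic and 1116, 1127, 819 and 949 in Treg-treated libraries (exact permutation p 0.0857, adjusted p 0.214). The largest TRA clonotype held 6.83, 4.99, 18.0 and 4.94 percent in allogeneic and 5.22, 4.51, 19.8 and 14.3 percent in Treg-treated libraries (exact permutation p 0.743, adjusted p 0.825), and the 10 largest 28.8, 24.9, 38.1 and 28.5 percent in allogeneic and 28.8, 27.6, 58.1 and 44.1 percent in Treg-treated libraries (exact permutation p 0.257, adjusted p 0.367). None of the 10 TCR tests passed after adjustment, and with 10 tests a single result at the smallest possible p cannot pass.

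**Figure D4:**
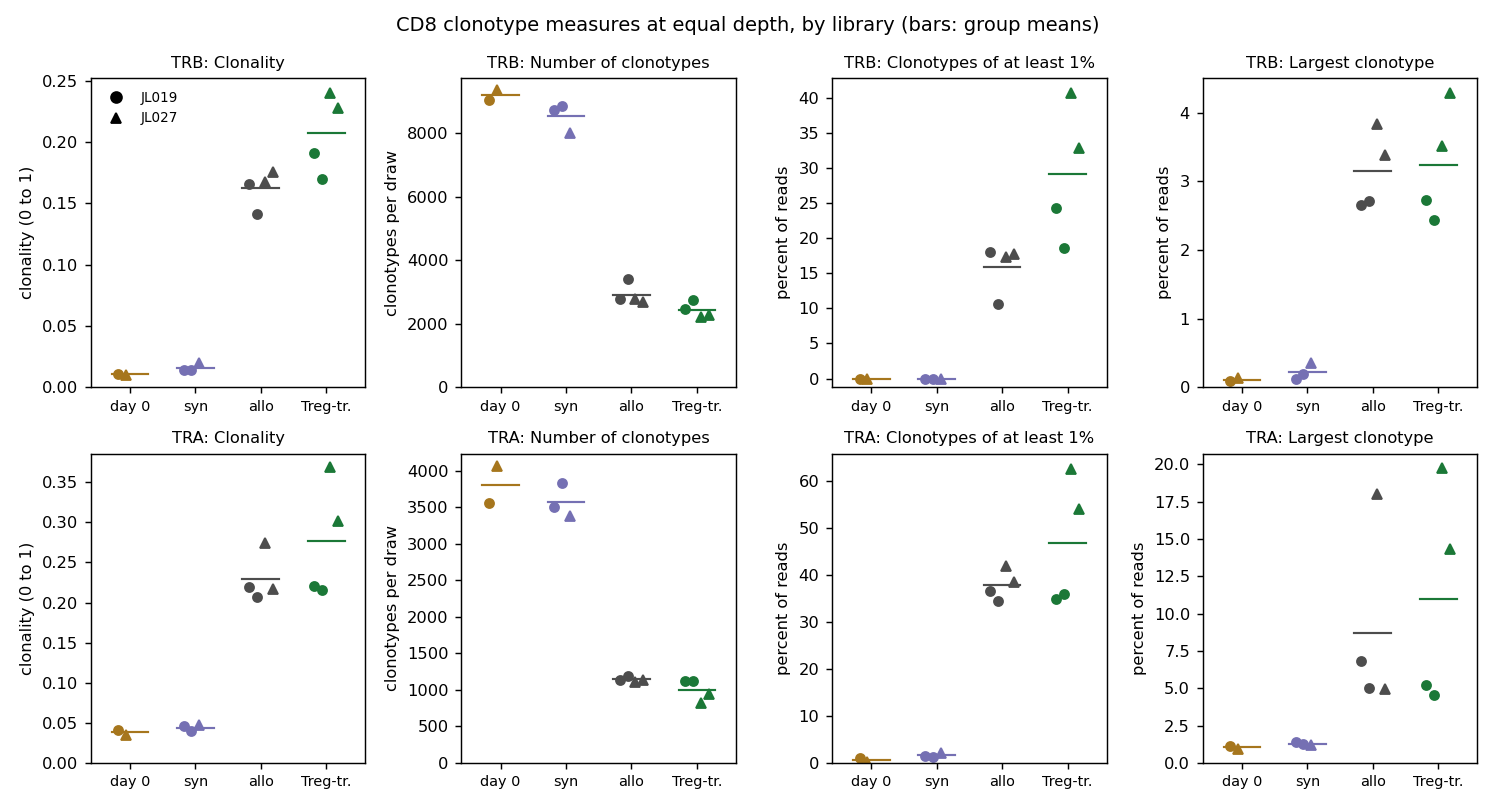
CD8 clonotype measures for TRB (upper row, 11487 reads drawn) and TRA (lower row, 6870 reads drawn), 1 point per library, by group (day 0, syngeneic, allogeneic, Treg-treated), with bars at group means and symbols for the prefix. TRB reads in clonotypes of at least 1% lie at 18.6-40.7 percent in Treg-treated and 10.6-18.0 percent in allogeneic libraries, and at 0 in the day 0 and syngeneic libraries.

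**Figure D5:**
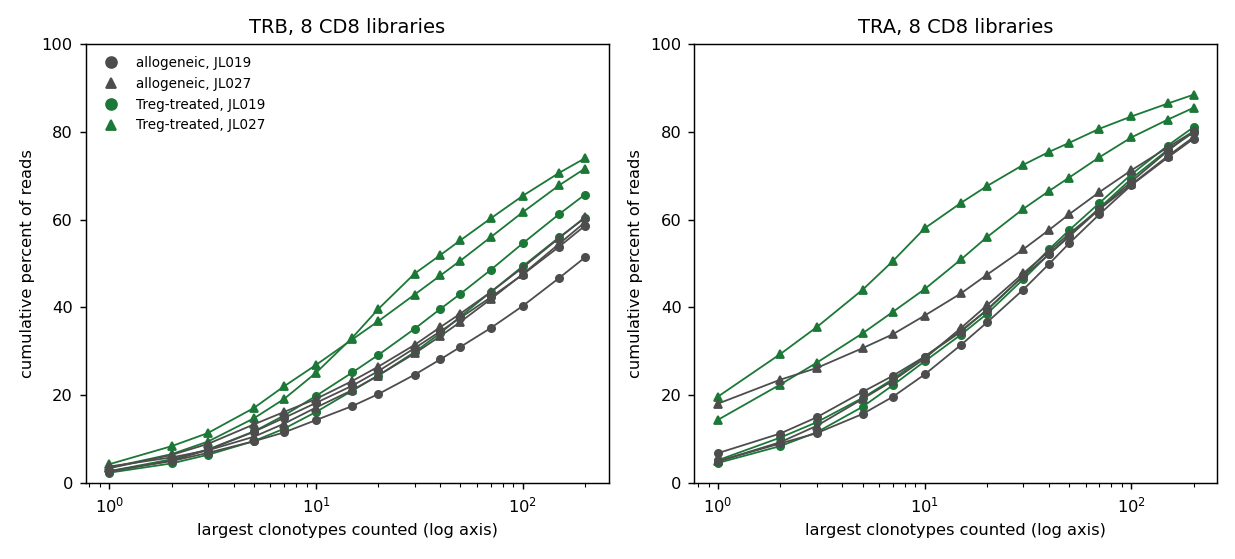
Cumulative percent of reads held by the largest clonotypes (log axis of rank) in the 8 CD8 libraries, TRB at left and TRA at right, green for Treg-treated and grey for allogeneic. At 100 TRB clonotypes the Treg-treated curves lie between 49.4 and 65.4 percent and the allogeneic ones between 40.3 and 49.1 percent.

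Large clonotypes were rarely large in more than 1 library. Without drawing to equal depth, 95 distinct TRB clonotypes reached 1% of reads in at least 1 of the 8 libraries, and 1 of them did so in 2 libraries. This was a TRBV16 TRBJ2-1 clonotype with a CDR3 of 11 residues, at 2.02% (Wilson 95% interval 1.80-2.26) in Treg-treated JL027-1 and 2.63% (2.39-2.88) in allogeneic JL019-1. It was also found in both day 0 and all 3 syngeneic CD8 libraries. Of the 95, 49 were found in at least 2 of the 8 libraries and 19 in a day 0 CD8 library. For TRA, 3 of 122 large clonotypes reached 1% in 2 libraries. The largest was a TRAV19 TRAJ49 clonotype at 19.7% (19.0-20.5) in Treg-treated JL027-1 and 2.05% (1.81-2.32) in JL027-2. Intervals cover counting error only, since PCR reads are not independent molecules.

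In 1 draw to equal depth, 19204 of 20197 TRB clonotypes were found in 1 library. Of all 20197, 7 were found in at least 3 Treg-treated and no allogeneic library, and 5 in at least 3 allogeneic and no Treg-treated library. Clonotypes of the day 0 CD8 library of the same prefix held 6.59-15.9 percent of TRB reads in Treg-treated and 7.81-10.01 percent in allogeneic libraries.

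Of 14 TRB and 13 TRA V segments with at least 1% of reads, none passed the exact permutation test after adjustment (lowest adjusted p 0.9 and 0.898) or before it (lowest p 0.114 and 0.171). Of 12 TRB and 33 TRA J segments none passed after adjustment (lowest adjusted p 0.971 and 0.754 by the exact permutation test). TRAJ11 held 2.33, 1.32, 6.60 and 3.13 percent of TRA reads in allogeneic and 1.08, 0.956, 0.708 and 0.549 percent in Treg-treated libraries, without overlap, at the smallest p that 4 against 4 can give (exact permutation p 0.0286, adjusted p 0.754). TRBV16, as the table names it, held 44.5% ± 6.14 (SD, n = 4) of TRB reads after Treg and 51.2% ± 3.17 (SD, n = 4) without Treg, and 51.3% on average at day 0. By prefix the TRBV16 difference was -1.84 points in JL019 and -11.4 in JL027, where Treg-treated JL027-1 held 36.2%. TRAV8D-2 held 19.3% ± 8.43 of TRA reads after Treg and 27.8% ± 9.17 without Treg. Its difference was 4.50 points in JL019 and -21.4 in JL027, where allogeneic JL027-1 held 40.5%. The mean TRB CDR3 length over reads was 13.6-13.8 residues in Treg-treated and 13.8-13.9 in allogeneic libraries.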

How the data were processed

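Donor CD8 T cells were profiled by bulk RNA-seq and TCR sequencing. Per the labels' protocols, the SMARTer v4 kit gave full-length cDNA, Nextera XT turned it into RNA-seq libraries, and TCR libraries by nested PCR from the same cDNA. FastQC 0.11.7, kallisto, DESeq2 and the builds GRCm38 and mm10 are named in the submitters' processing notes, without their roles. The RNA table deposited by the authors holds a signal, normalised counts scaled between libraries per the file headers. Whole reads could not be recovered, so RNA depth is unknown and no count model was fitted. The plan named a count test only for raw counts. The TCR tables deposited by the authors hold read counts per clonotype.

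limma 3.58.1 (R 4.3.3) was fitted to log2(value + 1) of 16741 genes with a mean of at least 1, with 31 libraries in a group-means model, moderated by eBayes (trend, robust), with p-values adjusted over all genes by Benjamini-Hochberg. On this scale low genes have understated fold changes. Changes within each prefix, their difference and the difference from CD4 cells came from the same kind of model. For the tested clonotype measures, clonotypes were counted after 20 draws per library to the lowest CD8 total (11487 TRB, 6870 TRA reads). They were compared by exact permutation over 70 splits, with adjustment over 10 tests. Overlaps between libraries and segment shares used all reads. Clonotypes were handled in Python 3.11.15 with pandas 2.3.3 and numpy 2.4.6, tests ran in scipy 1.17.1, and figures were drawn with matplotlib 3.10.9. Scripts were tested on simulated data.

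The members and lists were chosen with earlier results of these data known. Genes were named by 4 rules: all called genes; up to 10 higher and 10 lower genes of lowest p with separate groups, a mean of at least 50 in the higher group and the same sign in both prefixes; up to 3 genes of lowest p per list; and a set of CD8, Treg and effector genes named always. The second rule left out predicted, receptor segment, mitochondrial and ribosomal genes. The chaperone list, the FOXO list and other named genes were chosen after their values were seen. Of 78 genes so named, all 78 had a RefSeq location, and promoter sequences are RefSeq's for GRCm38.p6. Genes with near-identical copies are uncertain. One sample with no group in the labels was left out. One gene of the naive and lymph node homing list is not reported here by name. Alternatives covered filters, pseudocounts, the libraries in the fit, blocks, scaling, weights and each library left out.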

Additional observations from a re-analysis of the deposited data

Results flagged for a closer look

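Among 174 groups of 4 libraries checked, 13 had a lowest or highest library far from the other 3, and chance flags about 1 in 20 groups. In the Treg-treated group these were Sostdc1 at 21.1 and low in JL019-1, and Cd83 at 146 and Slc7a3 at 27.4, both low in JL019-2. In the allogeneic group, JL027-1 stood apart with Prdm1 at 2326, Bbc3 at 151, Sc5d at 2308 and Klrc1 at 30522 normalised counts, and with a largest TRA clonotype of 18.0% of reads. Allogeneic JL019-2 stood apart with Pdk1 at 1176, Ctla4 at 11921, 3401 TRB clonotypes and 10.6% of TRB reads in clonotypes of at least 1%. Ccr7 was 561 in allogeneic JL019-1.

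The Treg effect on Gcg, which encodes glucagon, differed between CD8 and CD4 cells by -6.48 on the log2 scale (limma adjusted p 0.000534 for the difference itself). It was the 1 gene called for that difference, and Gcg lay under 5 normalised counts in all 8 CD8 libraries.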

How the results depend on the processing

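The signs of the 11 called genes held under 24 alternatives, with adjusted p from 2.95e-06 to 0.737. The number called went from 11 to 0 with only the 8 libraries in the limma fit (1356 at an unadjusted p under 0.05), 4 with the 13 CD8 libraries, 321 with array weights (whose estimation did not converge), 50 with the library mean as a covariate, 6 without trend and robust options, 21 without both libraries of largest mean, and 4 to 63 with each library left out. It was 9 with quantile normalisation, 9 with median centring and 8 with the gene length trend removed, which kept 5, 8 and 8 of the 11. With the prefix as a replicate block it was 18, the 11 among them. With the replicate label as a block, fitted on the 8 libraries alone, it was 2, of which 0 were among the 11 (1045 at an unadjusted p under 0.05), against 0 in those 8 libraries without a block. Deviations of same-label libraries from their group means had a mean r of -0.0174 (from -0.167 to 0.184), and 1 label matched its own best. Deviations from a group mean are tied to each other within the group, and the labels are few. This check therefore cannot decide whether same-label libraries are paired. For the CD8 minus CD4 difference, 1 gene became 0 with a pseudocount of 0.1 (443 at an unadjusted p under 0.05), 2 with the prefix or recipient block, 3389 with array weights, 4 with the covariate, and 1 to 2 with each library left out.

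Signs turned for uncalled genes. With the covariate Cd8b1 was -0.0639, Id2 -0.0731, Il2ra 0.104 and Prf1 0.0215, and with quantile normalisation Gzmb was -0.0761 and Mki67 -0.0904. With each library left out, Mki67 ran from -0.106 to 0.244 (-0.0498 without allogeneic JL019-1, -0.0173 without Treg-treated JL019-1) and Prf1 from -0.229 to 0.0565. The TRB clonotype difference was 1077.5 without drawing to equal depth. The difference of the largest TRB clonotype ran from -0.253 to 0.364 points with each library left out (-0.0662 without allogeneic JL019-1, -0.0490 without JL019-2), and that of TRA from -0.674 to 5.37. The cause was not tested. RNA depth is unknown, and 4 libraries a group limit the precision.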

Other observations

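A list of 20 FOXO target and glucose-sensing quiescence genes, put together after values were seen, had 16 members lower in Treg-treated CD8 cells and a median log2 change of -0.133. None was called, 7 were lower at an unadjusted p under 0.05 (4.88% of all genes were), and the groups were separate for 3 lower genes (2.31% of all genes). With each library left out in turn the median ran from -0.364 (without allogeneic JL027-1) to -0.104 (without allogeneic JL019-1), and it was -0.0466 with median centring.

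Large TRA clonotypes numbered 62 in Treg-treated and 63 in allogeneic libraries, while large TRB clonotypes numbered 62 and 34. A TRAV9D-3 TRAJ23 clonotype with a CDR3 of 14 residues held 1.33% of TRA reads in Treg-treated JL019-2 (Wilson 95% interval 1.22-1.45) and 3.57% in allogeneic JL027-2 (3.27-3.89), and was found in both day 0 and all 3 syngeneic CD8 libraries. A TRAV8D-2 TRAJ31 clonotype of 12 residues held 18.1% of reads in allogeneic JL027-1 and 2.15% in allogeneic JL027-2, and was not found at day 0.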
